A study of Mus musculus with 2 samples.

Results

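The choroid plexus genes described here are a set of 9 genes, Ttr, Aqp1, Folr1, Clic6, Kl, Otx2, Enpp2, Slc4a5 and Prlr. They were found by symbol in the deposited table of 16103 genes, which lists 8 of them. Kl, the co-receptor for the hormone FGF23, is not listed and has no value here. The TRPM2-KD library came from GFP-positive neural progenitors of ICR mouse embryos, electroporated in utero at embryonic day 13 with a Trpm2 knockdown plasmid and sorted at embryonic day 15. The Control library was made in the same way with a control plasmid, and both carry the label warm. There was 1 library per group, and the column header of the knockdown names 1 construct, TRPM2-sh1, so the effect of that construct and the effect of less Trpm2 cannot be told apart. ICR is an outbred stock, and neither the temperature nor the number of embryos behind a library is stated.

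The choroid plexus is a fold of secretory epithelium that grows from the dorsal midline of the brain into the ventricles, next to the cortical hem. Its cells carry cilia on their apical face, make cerebrospinal fluid by moving ions and water, and release carrier proteins such as transthyretin. Transcription factor OTX2 is needed for the tissue to form. It is not a part of the cortical wall that gives rise to cortical neurons.

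Reads counted over all listed genes came to 20791236 in TRPM2-KD and 26209192 in Control. Trpm2 itself had 155 reads in TRPM2-KD and 241 in Control, a ratio of 0.811 with an interval from 0.658 to 0.996. That interval, like every interval below, is the exact binomial 95% interval of the read counts. It covers counting error only, and PCR reads without molecular identifiers are not independent molecules. An interval below 1, as for Trpm2, was found for 28.1% of all listed genes. Replicate spread is unknown with 1 library in each group, and the knockdown cannot be tested, so each ratio compares these libraries and not the conditions. Neuronal and progenitor genes were both abundant. The neuronal tubulin gene Tubb3 was at 680 RPKM in TRPM2-KD and 743 RPKM in Control, and the progenitor factor gene Sox2 at 65.3 and 64.4 RPKM. RPKM is the read count scaled to the gene's length and the library's depth. The 14 cortical progenitor and neuron genes examined had a summed level of 1683 RPKM in TRPM2-KD and 1723 RPKM in Control, a sum in which Tubb3 weighs most. Of these 14 genes 7 were higher in TRPM2-KD and 7 lower. The radial glia genes Slc1a3 and Fabp7 were at ratios of 1.56 (1.47 to 1.65) and 1.17 (1.13 to 1.21), but the radial glia gene Vim was at 0.910 (0.883 to 0.938). The neuronal factor genes Tbr1 and Neurod2 were at 0.861 (0.826 to 0.899) and 0.907 (0.884 to 0.931), but the neuronal gene Dcx was at 1.08 (1.06 to 1.09).

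Start regions of 3 of the genes are shown because they carry the lowest ratio (Aqp1), the highest ratio (Slc4a5) and the gene for the tissue's own factor (Otx2). Each is 300 bases, 250 before and 50 after an annotated start, 5′ to 3′ on the strand of the gene, from RefSeq on build GRCm38.p6. That build is not the one named for the deposited data. The letters TAATCC, the core that OTX proteins bind, were searched on both strands, and matches are in capitals.
Aqp1, plus strand, chr6:55336049-55336348: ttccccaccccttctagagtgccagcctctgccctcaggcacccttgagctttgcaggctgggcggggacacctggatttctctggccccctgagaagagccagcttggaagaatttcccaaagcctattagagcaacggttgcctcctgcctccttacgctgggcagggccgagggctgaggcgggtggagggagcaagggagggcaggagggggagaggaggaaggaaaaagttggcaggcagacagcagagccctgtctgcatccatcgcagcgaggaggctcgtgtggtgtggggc
Slc4a5, plus strand, chr6:83237125-83237424: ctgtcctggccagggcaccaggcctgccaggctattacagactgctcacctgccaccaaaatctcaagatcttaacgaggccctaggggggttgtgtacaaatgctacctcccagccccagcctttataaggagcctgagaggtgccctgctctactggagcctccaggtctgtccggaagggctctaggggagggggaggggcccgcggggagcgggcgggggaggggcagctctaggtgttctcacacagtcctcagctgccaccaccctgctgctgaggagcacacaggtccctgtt
Otx2, minus strand, chr14:48665060-48665359: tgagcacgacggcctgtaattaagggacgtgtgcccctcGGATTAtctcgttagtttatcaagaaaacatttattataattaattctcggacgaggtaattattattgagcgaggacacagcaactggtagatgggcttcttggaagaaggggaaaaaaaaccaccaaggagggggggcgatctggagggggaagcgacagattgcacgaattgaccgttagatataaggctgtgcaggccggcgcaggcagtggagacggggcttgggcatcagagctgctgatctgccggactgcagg

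The table of start regions held 10 windows for 5 of the 9 genes, 1 each for Aqp1, Kl and Slc4a5, 4 for Otx2 and 3 for Prlr. A match was found in 1 of the 10 windows, at one of the starts of Otx2, where the letters GGATTA begin 211 bases before the start. That window is the one shown for Otx2, and the other Otx2 windows, not shown, held no match. Of all 32851 windows of that length, 7.06% held a match. The windows of Aqp1 and Slc4a5 had the same GC content, 62.7%, with 8 and 6 CpG pairs, against a median GC content of 52.7% over all windows. No match says only that these letters are not in the window.

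Ttr was by far the most abundant of the 8 listed genes and the others were modest. It encodes transthyretin, the carrier of thyroxine and of retinol-binding protein, and it is the gene by which choroid plexus epithelium is usually recognised. Ttr (ENSMUSG00000061808.3) was at 283 RPKM in TRPM2-KD (276 to 289) and 403 RPKM in Control (396 to 410). These levels lie above those of 99.6% of all listed genes in TRPM2-KD and 99.7% in Control. Its reads numbered 7172 in TRPM2-KD and 12897 in Control. They were 0.0345% (0.0337% to 0.0353%) and 0.0492% (0.0484% to 0.0501%) of the reads counted over all listed genes. Ttr thus had 28.3 times the RPKM of the next gene, Enpp2, in TRPM2-KD, and 50.5 times that of the next gene, Otx2, in Control.

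**Figure D1:**
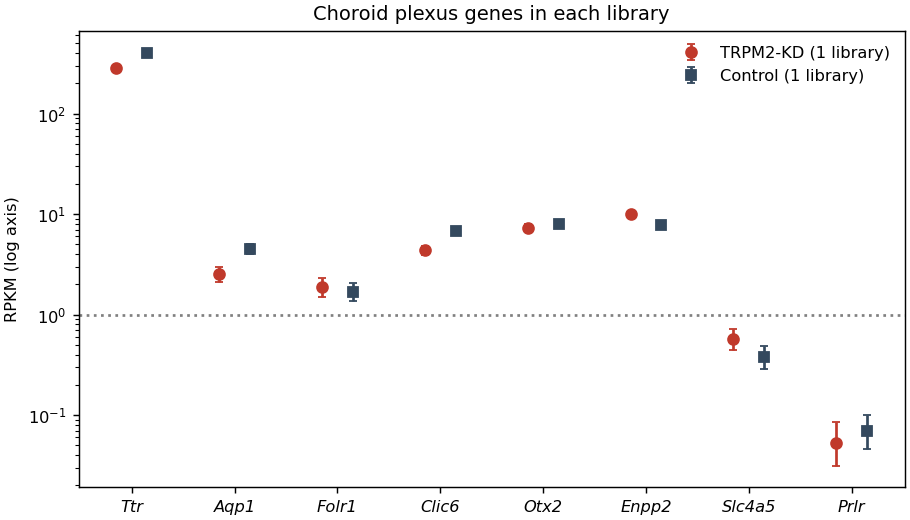
RPKM (log axis) of the 8 listed choroid plexus genes in the TRPM2-KD library (circles) and the Control library (squares), 1 library each, with exact Poisson 95% intervals of the read counts. Ttr lies at 283 and 403 RPKM, 5 genes lie between 1.69 and 9.99 RPKM, and Slc4a5 and Prlr lie below the dotted line at 1 RPKM in both libraries.

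Below Ttr the order of levels per length was alike in the libraries, apart from the places of Enpp2 and Otx2. In TRPM2-KD the order was Enpp2 at 9.99 RPKM, Otx2 at 7.30, Clic6 at 4.38, Aqp1 at 2.52, Folr1 at 1.86, Slc4a5 at 0.576 and Prlr at 0.0532 RPKM. In Control it was Otx2 at 7.99 RPKM, Enpp2 at 7.86, Clic6 at 6.84, Aqp1 at 4.53, Folr1 at 1.69, Slc4a5 at 0.378 and Prlr at 0.0696 RPKM. The counting intervals of neighbours in this order overlapped for Aqp1 and Folr1 in TRPM2-KD (2.12 to 2.98 and 1.49 to 2.29 RPKM). In Control they overlapped for Otx2 and Enpp2 (7.41 to 8.60 and 7.29 to 8.45 RPKM) and, narrowly, for Enpp2 and Clic6, whose interval ends at 7.37 RPKM. All other neighbours were apart by more than counting error. The spread between replicates is not known.

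The 8 genes differed between the libraries in both directions. Ttr, Aqp1 and Clic6 were lower in TRPM2-KD, at ratios of 0.558 to 0.701, with intervals below 1. Enpp2 and Slc4a5 were higher in TRPM2-KD, at ratios of 1.27 and 1.52, with intervals above 1. Folr1, Otx2 and Prlr had intervals that span 1. Over all listed genes the interval lay below 1 for 28.1% and above 1 for 28.3%, so 3 and 2 of 8 genes are near what the read counts resolve for any genes. In bulk RNA, fewer cells of a type and less RNA per cell cannot be told apart.

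Size was then taken on log2(RPKM + 1), which understates the difference of low genes, among the 13988 genes whose mean over both libraries reached 1 RPKM. Of the 9 genes 6 are among them, all but Slc4a5, Prlr and the unlisted Kl. The level nearest to that limit was the mean of Folr1, 1.78 RPKM, on the upper side, and that of Slc4a5, 0.477 RPKM, on the lower side. On this scale 1 of the 6, Aqp1, was at least 1.5-fold lower in TRPM2-KD, as were 2.82% of all 13988 genes. None of the 6 was at least 1.5-fold higher, as 3.55% of all were. Of the 6 genes 4 were below 0 and 2 above, with a median log2 difference of -0.31 (a ratio of 0.805), where all 13988 genes had a median of -0.004. The median was -0.12 without Ttr. Counted on the plain RPKM ratio with no limit on level, 2 of the 8 genes, Aqp1 and Clic6, were at least 1.5-fold lower in TRPM2-KD, against 7.99% of all 16103 genes. By the same count 1 gene, Slc4a5, was at least 1.5-fold higher, against 9.54% of all.

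**Figure D2:**
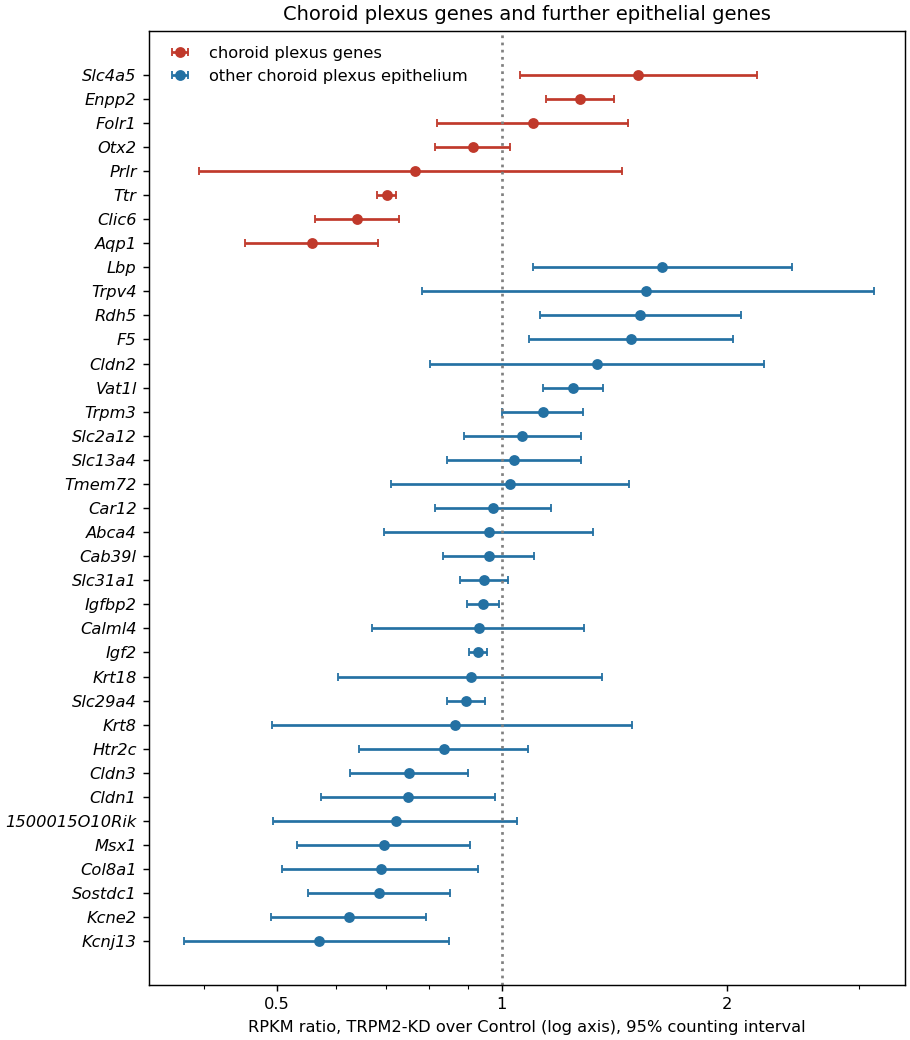
Ratio of RPKM, TRPM2-KD over Control (log axis), for the 8 listed choroid plexus genes (red) and 29 further genes known from choroid plexus epithelium (blue), with exact binomial 95% intervals of the read counts. The red points run from 0.558 for Aqp1 to 1.52 for Slc4a5, and the blue points from 0.569 for Kcnj13 to 1.64 for Lbp.

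Among the genes for secreted and carrier proteins, Ttr was at a ratio of 0.701 (0.681 to 0.722). Only 3.90% of the 13988 genes had a lower log2 difference than Ttr. Genes of like length had a slightly lower median as well, and relative to them the ratio of Ttr was 0.735. Of the 11 genes of thyroid hormone and retinol handling, which transthyretin serves, 9 passed the level limit, 4 above 0 and 5 below, with a median log2 difference of -0.07. Slco1c1, a thyroxine transporter gene, was at 1.41 (1.23 to 1.61), and Dio3, whose product inactivates thyroid hormone, at 1.47 (1.08 to 2.001). Crym, which encodes a protein that binds thyroid hormone in the cell, was at 1.38 (1.14 to 1.66).

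Enpp2 encodes autotaxin, a secreted enzyme that makes the signalling lipid lysophosphatidic acid. It had 722 reads in TRPM2-KD and 716 in Control, that is 9.99 and 7.86 RPKM, and a ratio of 1.27 (1.14 to 1.41). The deeper Control library thus gave slightly fewer Enpp2 reads than the TRPM2-KD library. Of the 10 genes of lysophosphatidic acid signalling and the Enpp family past the level limit, 6 were above 0 and 4 below. The receptor genes Lpar6 and Lpar4 were at ratios of 1.34 (1.08 to 1.66) and 1.26 (1.07 to 1.496), and Lpar2 was at 0.884 with an interval that spans 1. Enpp3, a gene of the same enzyme family, was at 0.538 (0.369 to 0.774).

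Among the genes for water and ion movement, Aqp1 had the lowest ratio. It encodes the water channel of the apical membrane of the epithelium. Aqp1 (ENSMUSG00000004655.5) had 138 reads in TRPM2-KD and 312 in Control, or 2.52 and 4.53 RPKM, and a ratio of 0.558 (0.453 to 0.683). Its counting intervals in the libraries did not overlap. Red blood cells and some endothelia also carry this channel. The 16 endothelial genes had a summed level of 141 RPKM in TRPM2-KD and 172 RPKM in Control, with 13 of 16 below 0 and none at 0 in a library. Of 12 erythroid genes 10 are listed, summing to 90.8 RPKM in TRPM2-KD and 76.5 RPKM in Control, with 3 of the 7 past the level limit above 0 and 4 below. Hbb-bt, with 166 reads in TRPM2-KD and 3 in Control, carries most of that gap, and without it the sums are 79.5 and 76.4 RPKM. Reads of Hbb-bt and Hbb-bs are hard to separate because the genes are nearly identical. Their part in the value of Aqp1 was not tested. Of 11 other aquaporin genes 4 are listed, and only Aqp11 passed the level limit, at a ratio of 1.11 with an interval that spans 1. Below that limit Aqp7 was at 4.62 (1.82 to 13.9), Mip at 0.352 (0.169 to 0.679), and Aqp4 had an interval that spans 1.

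Clic6, a member of the chloride intracellular channel family, had 357 reads in TRPM2-KD and 703 in Control, or 4.38 and 6.84 RPKM. The ratio was 0.640 (0.562 to 0.728), and only 3.40% of the 13988 genes had a lower log2 difference. Its relatives Clic1 and Clic4 were near 1, at 1.01 (0.936 to 1.08) and 0.976 (0.936 to 1.02), with Clic1 at 35.4 RPKM in TRPM2-KD and 35.2 RPKM in Control. Clic3 was at 1.41 (1.06 to 1.89). Clic5, below the level limit, had 55 reads in TRPM2-KD and 7 in Control, a ratio of 9.90 (4.50 to 25.8).

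Slc4a5 encodes a sodium bicarbonate cotransporter of the epithelium. It had only 70 reads in TRPM2-KD and 58 in Control, or 0.576 and 0.378 RPKM. The ratio of 1.52 had a wide interval, from 1.06 to 2.19. Of 19 listed genes of other ion transporters and carbonic anhydrases, 17 passed the level limit, 10 above 0 and 7 below, with none past 1.5-fold and a median log2 difference of 0.05. The chloride cotransporter gene Slc12a2 was at a ratio of 1.44 (1.37 to 1.52), the bicarbonate transporter genes Slc4a4 and Slc4a7 at 1.42 (1.26 to 1.59) and 1.25 (1.18 to 1.32), and the carbonic anhydrase gene Car14 at 1.22 (1.04 to 1.43).

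Among the receptors, Folr1, the folate receptor that carries folate across the epithelium, had 89 reads in TRPM2-KD and 102 in Control. At 1.86 and 1.69 RPKM its ratio was 1.10 (0.818 to 1.48), and no difference was detectable at this depth. Its neighbour on chromosome 7, Folr2, a folate receptor of macrophages, was at 3.25 RPKM in TRPM2-KD and 2.23 RPKM in Control, a ratio of 1.46 (1.03 to 2.08). The 15 microglia and macrophage genes summed to 353 RPKM in TRPM2-KD and 239 RPKM in Control, with 13 of the 14 past the level limit above 0. Their part in the value of Folr2 was not tested. Of 14 genes of folate uptake and metabolism, Folr2 included, 9 were above 0 and 5 below. Mtr, methionine synthase, was at 1.57 (1.35 to 1.83), Shmt1, a hydroxymethyltransferase of folate metabolism, at 1.40 (1.19 to 1.65) and Fpgs, which traps folate in cells, at 0.648 (0.553 to 0.758).

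Prlr, the prolactin receptor gene, had 17 reads in TRPM2-KD and 28 in Control, too few to place its ratio of 0.765 (0.393 to 1.45). Both levels, 0.0532 and 0.0696 RPKM, lie below those of more than 99% of listed genes. Of 8 listed genes of prolactin and growth hormone receptor signalling 6 passed the level limit, 3 above 0 and 3 below, with Socs2, a feedback inhibitor gene, at 0.904 (0.836 to 0.976). Socs1, Cish and Stat5b, at 1.48, 1.10 and 0.928, had intervals that span 1. Kl, the remaining receptor gene, is not listed. Of the FGF receptor genes, whose products klotho partners, Fgfr2 and Fgfr3 were at 1.24 (1.15 to 1.34) and 1.20 (1.11 to 1.30). The more abundant Fgfr1 was at 0.983 (0.939 to 1.03) and Fgfr4 at 1.01 (0.779 to 1.32), both with intervals that span 1. Klb, a relative of Kl, had 9 reads in TRPM2-KD and 29 in Control, a ratio of 0.391 (0.163 to 0.849). Lctl, another relative, went the other way with 34 reads in TRPM2-KD and 22 in Control, a ratio of 1.95 (1.11 to 3.50). Klb and Lctl lie below the level limit. Adam17 and Adam10, proteases that shed klotho from the cell surface, were at 1.40 (1.27 to 1.53) and 1.22 (1.17 to 1.27).

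The transcription factor gene Otx2 had 516 reads in TRPM2-KD and 712 in Control, or 7.30 and 7.99 RPKM. Its ratio of 0.914 had an interval from 0.814 to 1.02 that spans 1. Otx2 therefore stood nearer to 1 than Ttr, Aqp1 or Clic6, whose intervals lie wholly below that of Otx2. OTX2 is also made outside the choroid plexus, in the thalamus and midbrain. Of 7 listed genes of Otx relatives and forebrain patterning 2 were above 0 and 5 below. The cortical factor genes Emx1 and Emx2 were at 0.699 (0.642 to 0.762) and 0.802 (0.71 to 0.905), and Gbx2, a factor of thalamus and hindbrain, was at 1.70 (1.31 to 2.1996).

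Setting each gene against Ttr within the same library removes the scaling between libraries. Aqp1 had 19.2 reads for every 1000 Ttr reads in TRPM2-KD and 24.2 in Control, a ratio of 0.795 (0.645 to 0.977). Clic6 had 49.8 and 54.5, a ratio of 0.913 (0.799 to 1.04), with an interval that spans 1. Otx2 had 71.9 in TRPM2-KD and 55.2 in Control (ratio 1.30, 1.16 to 1.47), and Folr1 had 12.4 and 7.91 (ratio 1.57, 1.17 to 2.11). Enpp2 had 101 in TRPM2-KD and 55.5 in Control, a ratio of 1.81 (1.63 to 2.02), and Slc4a5 had 9.76 and 4.50, a ratio of 2.17 (1.51 to 3.13). The 8 genes thus did not differ by 1 common factor between these libraries, beyond counting error. Relative to Ttr, 4 genes were higher in TRPM2-KD and 1 was lower. Prlr had 2.37 and 2.17, with an interval of the ratio from 0.56 to 2.07.

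**Figure D3:**
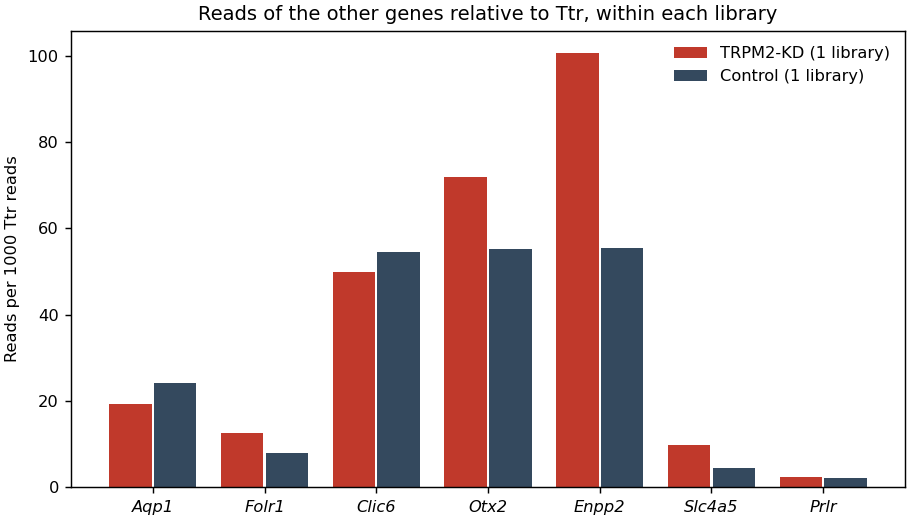
Reads of each other choroid plexus gene per 1000 Ttr reads, within the TRPM2-KD library (left bars) and the Control library (right bars), 1 library each. Enpp2 stands at 101 in TRPM2-KD and 55.5 in Control, while Clic6 stands at 49.8 and 54.5.

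Further genes known from choroid plexus epithelium also lay on both sides of 1. Of the 30 on that list 29 are listed in the table and 20 passed the level limit. On log2(RPKM + 1) 5 of the 20 were above 0 and 15 below, with none past 1.5-fold and a median log2 difference of -0.08. The ratios below are plain RPKM ratios, and some of them pass 1.5-fold. Counting intervals lay below 1 for 10 of the 29 and above 1 for 5, where 28.1% and 28.3% of all genes had such intervals. The lowest were the potassium channel genes Kcnj13, at 1.40 RPKM in TRPM2-KD and 2.46 RPKM in Control (ratio 0.569, 0.375 to 0.848), and Kcne2, at 2.91 and 4.66 RPKM (ratio 0.624, 0.491 to 0.791). Sostdc1, a secreted BMP and Wnt antagonist gene, was at 3.59 RPKM in TRPM2-KD and 5.25 RPKM in Control (ratio 0.685, 0.550 to 0.851). The highest past the level limit was Rdh5, a retinol dehydrogenase gene, at 1.64 and 1.07 RPKM (ratio 1.53, 1.13 to 2.09). The most abundant genes of the list, Igfbp2 and Igf2, were close to 1, at 0.943 (0.898 to 0.990) and 0.929 (0.903 to 0.956), and are also made by meningeal and other cells. These 2 genes were picked for their level after it was seen.

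Genes of the motile cilia programme, which choroid plexus cells share with ependyma, included several of the lowest ratios. Of 20 genes 19 are listed and 9 passed the level limit, 2 above 0 and 7 below, with a median log2 difference of -0.15. Foxj1, the main transcription factor gene of motile cilia, had 391 reads in TRPM2-KD and 754 in Control, or 7.16 and 10.95 RPKM, and a ratio of 0.654 (0.577 to 0.740), close to that of Clic6. Fam183b, a ciliary gene, had 27 reads in TRPM2-KD and 85 in Control and a ratio of 0.40 (0.25 to 0.624). Ccdc39, needed to assemble the ciliary shaft, went the other way at 1.38 (1.25 to 1.52), and Rsph1, a radial spoke gene, was at 0.818 with an interval that spans 1.

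The genes that start the multiciliated state lie below the level limit, and they are named here after their values were seen. Mcidas, which encodes multicilin, had 8 reads in TRPM2-KD and 66 in Control, a ratio of 0.153 (0.0633 to 0.319). Ccno, a cyclin gene needed for making many centrioles, had 9 and 65 reads, a ratio of 0.175 (0.0764 to 0.352). Gmnc, which acts before Mcidas, had 24 reads in TRPM2-KD and 79 in Control, a ratio of 0.383 (0.232 to 0.611). The authors' deposited table gives these 3 genes log2 fold changes of -2.69, -2.50 and -1.38. With 1 library per group its p-values cannot measure replicate spread, and they are not given here. Dnah5, a ciliary dynein gene, was higher in TRPM2-KD with 42 and 11 reads, a ratio of 4.81 (2.44 to 10.4). Counting intervals lay below 1 for 7 of the 19 genes and above 1 for 3, against 28.1% and 28.3% of all genes.

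**Figure D4:**
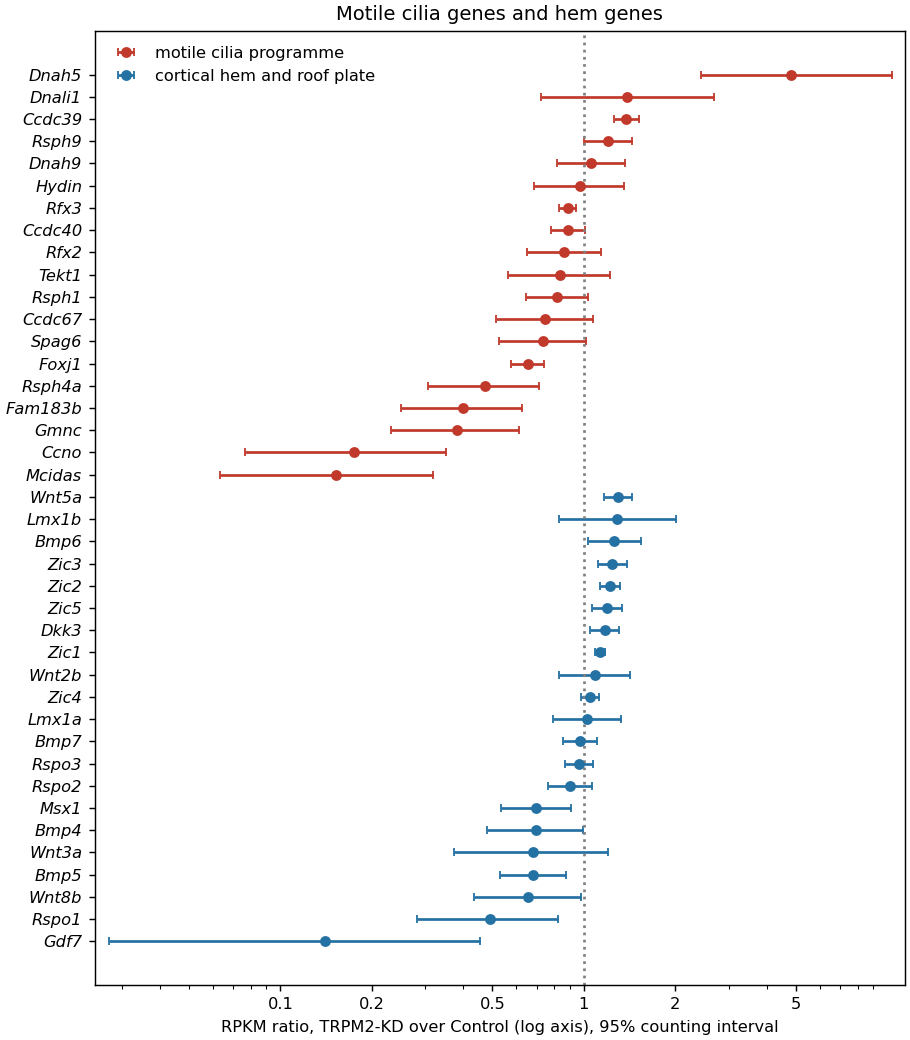
Ratio of RPKM, TRPM2-KD over Control (log axis), for 19 genes of the motile cilia programme (red) and 21 genes of the cortical hem and roof plate (blue), with exact binomial 95% intervals of the read counts. Mcidas, Ccno and Gmnc lie at 0.153, 0.175 and 0.383, and the Zic genes lie between 1.05 and 1.24.

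The cortical hem and roof plate, from which the choroid plexus grows, gave values on both sides of 1. Of 22 genes 21 are listed and 16 passed the level limit, 10 above 0 and 6 below, with a median log2 difference of 0.06. The BMP ligand genes Bmp4 and Bmp5 were at ratios of 0.694 (0.479 to 0.994) and 0.681 (0.529 to 0.874). Bmp6 went the other way at 1.26 (1.03 to 1.54), and Bmp7 was at 0.971 with an interval that spans 1. Msx1, a factor gene induced by BMP signals that also stands on the epithelial list, was at 0.696 (0.532 to 0.906). Wnt5a was at 1.29 (1.16 to 1.44). Below the level limit, and named after its value was seen, the roof plate ligand gene Gdf7 had 3 reads in TRPM2-KD and 27 in Control, a ratio of 0.140 (0.0272 to 0.455). Lmx1a, a roof plate factor gene, was near 1 at 1.03 (0.789 to 1.33).

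Endothelial and stromal fibroblast genes mark cells that accompany the choroid plexus. Counting intervals lay below 1 for 11 of the 16 endothelial genes and above 1 for 2, and for 7 and 3 of the 15 listed fibroblast genes, against 28.1% and 28.3% of all genes. The 16 endothelial genes had a median log2 difference of -0.20, with Mfsd2a, a lipid transporter gene of brain vessels, at a ratio of 0.633 (0.565 to 0.708) and Sox17 at 1.40 (1.11 to 1.75). Of 16 meningeal and stromal fibroblast genes 15 are listed, 10 below 0 and 5 above, summing to 148 RPKM in TRPM2-KD and 172 RPKM in Control, none at 0, with Col1a1 at 0.615 (0.582 to 0.650) and Crabp2 at 1.79 (1.38 to 2.33). The 10 mural cell genes summed to 88.5 RPKM in TRPM2-KD and 92.7 RPKM in Control, 6 above 0 and 4 below. Medians of the 18 further lists ran from -0.20 for the endothelial genes to 0.61 for the microglia and macrophage genes. The part of these cells in the values of the choroid plexus genes was not tested.

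**Figure D5:**
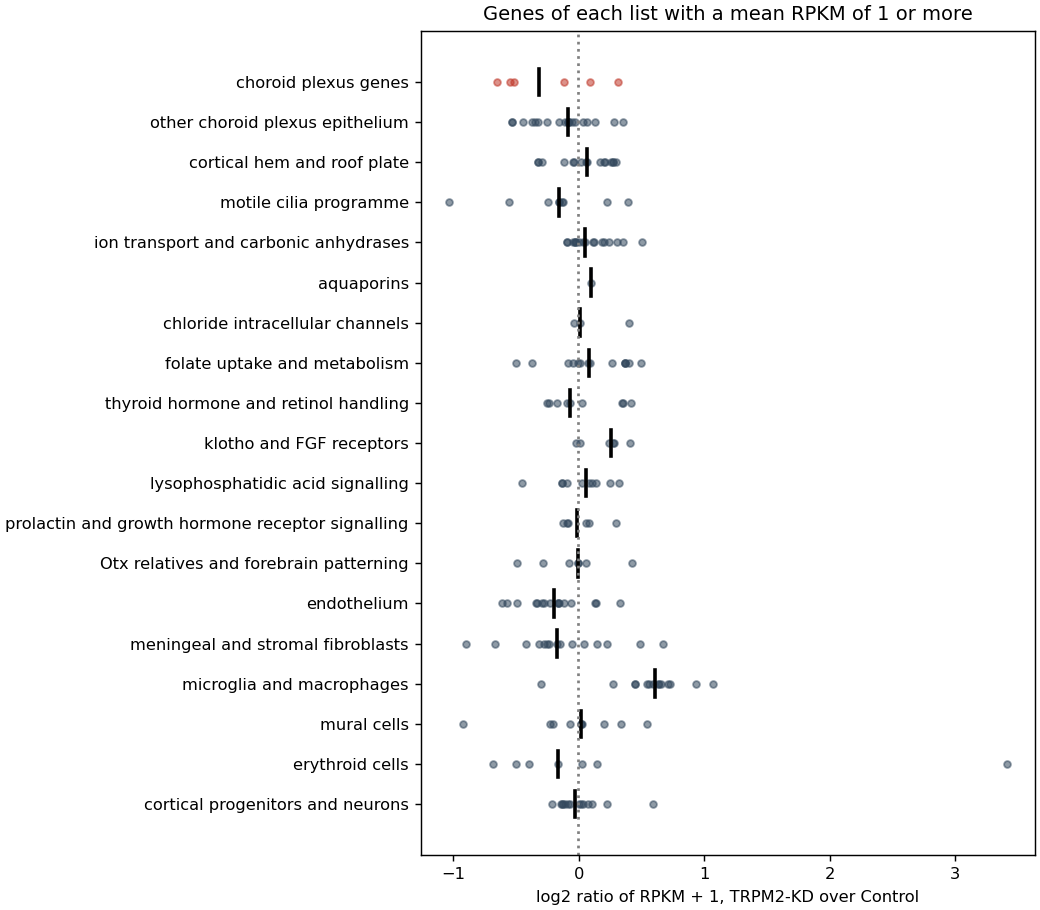
Log2 difference of RPKM + 1, TRPM2-KD over Control, for each gene whose mean reached 1 RPKM (points) in the choroid plexus genes (red) and 18 further lists, with the median of each list (bars). The dotted line is the median of all 13988 genes, -0.004, and the bar of the choroid plexus genes is at -0.31.

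In the authors' deposited table none of the 8 genes met the rule stated for the series, which asks for a p-value under 0.05. Since there is 1 library per group, those p-values carry no measure of replicate spread. The log2 fold changes in the authors' deposited table are -0.84 for Aqp1, -0.64 for Clic6, -0.51 for Ttr and 0.60 for Slc4a5.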

How the data were processed

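RNA of 1 TRPM2-KD and 1 Control library was compared. The authors deposited 1 table that holds, per the file headers, a whole-number read count and an RPKM value for each library and gene, with the authors' log2 fold change, p-value and adjusted p-value. Which tool made that comparison is not given in the sources used here. HTSeq 0.6.0, TopHat2 2.0.12, Bowtie2 2.2.3 and the build mm9 are named, without roles, in the submitters' processing notes. Strand and multi-mapping treatment are not given there, so reads of overlapping genes cannot be told apart. The table lists no gene whose CPM was under 1.01 in both libraries.

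Ratios of RPKM were computed as TRPM2-KD over Control, with exact conditional binomial (Clopper-Pearson) 95% intervals from the counts (Python 3.11.15, scipy 1.17.1), and levels with exact Poisson intervals. Lists were summarised on log2(RPKM + 1) over genes whose mean reached 1 RPKM. The interval code was tested on simulated data. Named were all 9 members, Trpm2, and up to 4 genes of each list with 50 or more reads and the largest ratios in either direction. Some genes that this rule takes are not reported here. Other genes, including the level comparisons, were chosen after their values were seen. The members and the 18 other lists were chosen with earlier results of these data known. Start regions came from RefSeq, GRCm38.p6. Alternatives were other scalings (edgeR 4.0.16 for TMM), pseudocounts, level limits, folds, interval widths and a correction for gene length.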

Additional observations from a re-analysis of the deposited data

How the results depend on the processing

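The ratios of all 8 listed genes kept their side of 1 under size factors, TMM, totals without mitochondrial genes and the length correction. The other scalings shifted all log2 ratios by at most 0.0017. With the correction for gene length the ratio of Ttr was 0.735 and that of Slc4a5 was 1.497, just under 1.5-fold. The number of genes at least 1.5-fold lower, 1 of 6, was 2 with a pseudocount of 0.1, 2 on the plain ratio, 2 on the plain ratio with no level limit (an alternative chosen after seeing the data), 0 with a level limit of 5 RPKM and 0 at 2-fold. The number at least 1.5-fold higher, 0 of 6, was 1 on the plain ratio with no level limit. The number of intervals above 1, which was 2, was 1 with 99% intervals. The median log2 difference of the choroid plexus genes, -0.31, was -0.069 with no level limit and -0.12 without Ttr, since 6 to 8 genes give it. With Enpp2 in place of Ttr within a library, the ratio was 0.865 for Folr1 and 0.719 for Otx2, both on the other side of 1, by the construction of that measure. Of 79 medians recomputed for 16 other lists, 2 moved by more than the counting interval of the middle genes. No paired analysis was possible because there is 1 library per group. Leaving out a library leaves no comparison. Among the choroid plexus genes Prlr and Slc4a5 have the fewest reads, and their intervals are the widest relative to the ratio.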

Other observations

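Some of these genes lie next to each other in RefSeq on GRCm38.p6, and neighbours did not always have like values. The neighbours were looked up after the values were seen. Ccno and Mcidas are adjacent on chromosome 13, at ratios of 0.175 and 0.153. The next gene, Cdc20b, had 27 reads in TRPM2-KD and 23 in Control, a ratio of 1.48 with an interval from 0.817 to 2.70. Kcne2 and Clic6 lie near each other on chromosome 16, and 4 genes of that stretch are listed in the table, both ends included. Kcne2 was at 0.624, Smim11 at 0.680 (0.591 to 0.780) with 317 reads in TRPM2-KD and 588 in Control, and Clic6 at 0.640. Rcan1, between Smim11 and Clic6, was at 1.06 (0.978 to 1.15) with 1153 and 1373 reads. Whether reads of Kcne2 and Smim11 can be told apart was not tested.

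Of 8 listed genes of klotho relatives, FGF receptors and the proteases that shed klotho, 6 passed the level limit. These were Fgfr1, Fgfr2, Fgfr3, Fgfr4, Adam10 and Adam17, with 5 above 0, 1 below and a median log2 difference of 0.26.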
